A study of Homo sapiens with 8 samples.

Results

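The control condition described here is HuCCT1, an established human intrahepatic cholangiocarcinoma cell line, carrying the vector named shControl. Its members are the 2 arrays titled shControl, chosen by that title, out of 8 arrays in the series. The other 6 arrays held RNA of HuCCT1 cells with the vector shNontarget, also labelled control, and of the BEX2-knockdown sublines shBEX2-1 and shBEX2-2, with 2 arrays for each vector. The vectors encode short hairpin RNAs and were delivered by retrovirus, the parent line was the same for each, and no untransduced HuCCT1 array was analysed here. The study describes a single control hairpin, against luciferase, and the sources used here do not say whether shControl or shNontarget is that hairpin. Nor do they name separate cultures behind the 2 arrays of a vector, so that the spread between them may be technical, and p values measure that spread alone. Total RNA was labelled with Cy3 and read on single-colour Agilent expression arrays.

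Cholangiocytes are the epithelial cells that line the bile ducts. They share an embryonic precursor with hepatocytes, and in the adult they are told apart from them by keratins of simple ducts, by the adhesion molecule EPCAM and by the transcription factor SOX9, whereas hepatocytes make albumin, clotting factors and bile acid enzymes. Ducts modify bile by secreting chloride and bicarbonate, lay down a basement membrane of laminins, and cover their luminal face with mucins. Tumours of the ducts usually keep part of this program, and the receptors and secreted proteins they express are followed because several are drug targets or serum markers.

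The probes for the 4 biliary markers and for 2 genes of other lineages are shown because the identity of the cells rests on readings of this kind. Each probe has 60 bases, of which the first 30 are given 5′ to 3′ as the array design lists them, with the position of the whole probe on build hg19. The strand is that of the design's coordinates, and the part of the gene each probe covers was not looked up.
KRT7 (chr12:52642590-52642649, + strand): aagaagattcccacccctgcctcccatgcc
KRT19 (chr17:39679918-39679977, - strand): cttctgctgtcctttggagggtgtcttctg
SOX9 (chr17:70121841-70121900, + strand): aaagcaagtttctttgtattcctcacccta
EPCAM (chr2:47613894-47613953, + strand): tcaaaatataagcagcttgaaactggcttt
AFP (chr4:74321349-74321408, + strand): ggaagagaagacaaaacgagtctttcattc
PDX1 (chr13:28499310-28499369, + strand): agaaataattgaaaggaaatgtttgagttt
The probes differ in base content, with 55% G and C in those for KRT7 and KRT19 and 35% in those for EPCAM, AFP and PDX1. A probe's brightness depends on its sequence as well as on the amount of RNA, so that the values below place each gene against its own array and its background, and their order from gene to gene is no order of transcript amounts.

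A level is the log2 of the processed intensity minus the 75th percentile of all non-control spots of the same array, so that 0 is the brightness below which 75% of the spots lie. That percentile was an intensity of 730 on array 1 and 838 on array 2. A gene was taken as detected where at least 1 of its probes was marked well above background on both arrays, and its level is that of its brightest probe by the mean of both. Values near -7 are mostly surrogates that the scanner software sets for signals at background, and they carry no order. Of 34809 gene names, 19593 (56.3%) were detected, 1928 were well above background on 1 array alone, and 13288 on neither. Among 4642 detected names with more than 1 probe, 1128 (24.3%) had at least 1 probe that did not meet this mark on both arrays. Of the 18270 names that are protein-coding in RefSeq, 69.4% were detected and 33.9% lay above 0 on both arrays. Levels are described without a test, and with n = 2 both arrays' values are given in order in place of a mean and SD. Detected genes differed between the arrays by a median of 0.112 on the log2 scale, and 259 of them (1.32%) by over 1.

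The other arrays are used below for 2 comparisons and 1 count of detected genes, and the pair for shNontarget stands apart. Of 20450 genes tested, 7133 (34.9%) differed by over 1 on the log2 scale between the 2 shNontarget arrays, against 360 (1.76%) between the shControl arrays, 321 between those of shBEX2-1 and 114 between those of shBEX2-2. Against the shControl mean, the shNontarget arrays differed by over 1 for 3144 and 2082 genes and the subline arrays for 1659 to 2401. Besides the gap within the shNontarget pair, its replicate 1 thus lay further from shControl than any other array, and its replicate 2 within the subline range. All 8 arrays lay on 1 slide, with both control vectors in its first row and both BEX2 sublines in its second, so that row and BEX2 knockdown cannot be told apart.

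Ribosomal proteins, translation factors and simple keratins held many of the brightest probes of control HuCCT1 cells. Of the 40 brightest gene names, 18 were ribosomal proteins, among them RPS2 with levels of 8.57 and 8.45, RPL23 with 8.40 and 8.16, and RPS21 with 8.30 and 8.15. The elongation factor EEF1A1 (8.17 and 8.11), the initiation factor EIF1 (7.82 and 7.68) and the cytoskeletal actin ACTB (8.0 and 7.91) were in the same set. KRT7 and KRT19, the keratins by which pathologists recognise bile duct epithelium, were the 2 genes of the biliary identity list among these 40. CYP2W1, a cytochrome P450 enzyme described in tumours, read 7.93 and 7.91 by its single probe.

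Some names in this brightest set rest on a single probe that other probes of the gene did not share. NAT11 headed the set at 8.67 and 8.64, yet its other probe had a mean level of -1.48. GPR155, an orphan membrane receptor, read 8.46 and 8.42 with another probe at -4.09. FUT6, a fucosyltransferase, read 7.99 and 8.02 with another at -1.70, and AS3MT, an arsenic methyltransferase, 7.67 and 7.70 with another at -7.32. Of the 40 names, 17 had more than 1 probe, and for 6 of these the lowest other probe lay over 4 below. A further 10 of the 40 are LOC numbers, transcript identifiers or probe identifiers in the design. The probes were also somewhat richer in G and C than the rest, with a median of 47.5% against 43.3% over all probes.

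The 4 biliary markers were detected on both arrays. In all 11 of 14 identity genes (78.6%) were detected, beside 69.4% of protein-coding names, so that this count alone says little about identity. KRT7 had intensities of 232935 and 252186, which are levels of 8.32 and 8.23, and KRT19 had 223590 and 248804, which are 8.26 and 8.21. EPCAM, an adhesion molecule of simple epithelia, read 5.02 and 4.98. CD24, a surface glycoprotein of progenitor and duct cells, read 4.11 and 4.09, and ANXA4, an annexin of biliary epithelium, 2.41 and 2.43. Each of these lay above the 75th percentile on both arrays, as did 6 genes of the list in all.

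The remaining detected identity genes were dimmer than the 75th percentile of their arrays. SOX9, the transcription factor that marks duct cells from the embryo onward, had intensities of 416 and 439 and levels of -0.81 and -0.93. PROM1 (CD133), a progenitor surface protein, read -1.42 and -1.26, and DCDC2, a protein of cilia in cholangiocytes, -1.79 and -1.62. BICC1, an RNA-binding protein of cystic duct disease, read -2.52 and -2.65. By their brightest probes, the same number, 11 of 14, was well above background on all 8 arrays of the series.

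Genes of this list that were not well above background on either array were ONECUT1 (HNF6, a factor of duct morphogenesis), PKHD1 (the fibrocystin of cholangiocyte cilia) and SPP1 (osteopontin, a matrix protein that ducts secrete). Their levels lay between -7.48 and -6.44. The plot of duct and hepatocyte genes sets these beside the genes of the neighbouring lineage.

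**Figure D1:**
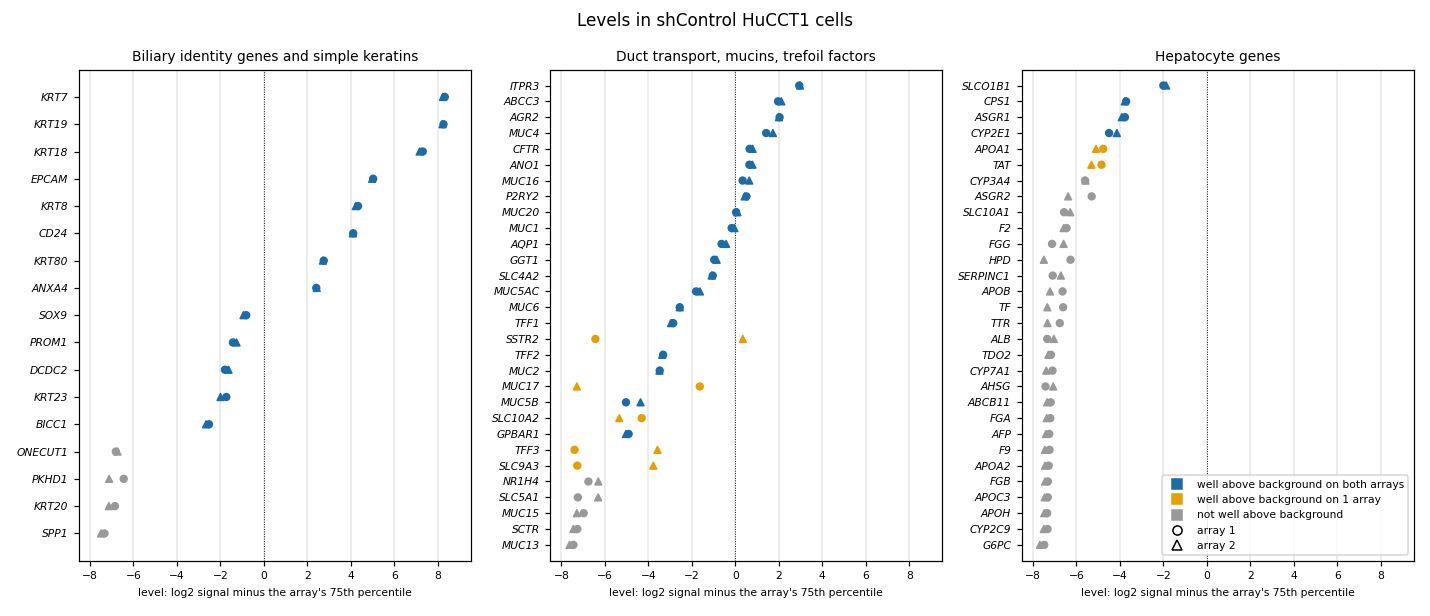
Levels of biliary identity genes and simple keratins (left), duct transport genes, mucins and trefoil factors (middle) and hepatocyte genes (right) on the 2 shControl arrays. The x axis is log2 signal minus the array's 75th percentile, circles are array 1 and triangles array 2, and colour gives the detection call. KRT7 and KRT19 sit above 8 on both arrays, whereas the hepatocyte genes lie at or below -1.87.

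Of 15 genes of duct transport and signalling, 9 were detected, 5 of them above the 75th percentile. ITPR3, the apical calcium release channel of cholangiocytes, read 2.94 and 2.98. ABCC3, a basolateral exporter of bile acids and glucuronides, read 1.96 and 2.12. The chloride channels CFTR (0.66 and 0.80) and ANO1 (0.65 and 0.79) and the nucleotide receptor P2RY2 (0.51 and 0.43) were next. AQP1, a water channel, read -0.63 and -0.42, the bicarbonate exchanger SLC4A2 -1.04 and -1.08, and the bile acid receptor GPBAR1 -4.90 and -5.03.

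SCTR, the receptor through which secretin drives bicarbonate secretion, NR1H4 (FXR, the nuclear bile acid receptor) and the glucose transporter SLC5A1 were not well above background on either array. SLC10A2, the apical bile acid importer, was well above background on array 1 alone, with -4.31 and -5.33. SSTR2 and SLC9A3 were also called on a single array, with readings taken up further below.

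HuCCT1 controls expressed the keratins of simple epithelium with a few of those of stratified epithelium. Besides KRT7 and KRT19, the simple keratins KRT18 (7.30 and 7.16) and KRT8 (4.33 and 4.23) were detected, and KRT80 read 2.75 and 2.72. A second KRT8 probe had a mean level of -1.07. KRT20, the keratin of intestinal epithelium, was not well above background, so that 6 of 7 simple keratins were detected. Of 11 stratified keratins 6 were detected, with KRT10 (3.50 and 3.27) and KRT15 (1.58 and 1.68) bright and KRT17 at 0.30 and 0.22. KRT5, the basal keratin, read -7.31 and -7.41 and was not well above background. KRT14, KRT16 and KRT17 are distinct genes of similar sequence whose probes may share RNA.

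Regulators of the epithelial state were detected as a whole. In this list of 18 genes, 18 were detected and 13 lay above the 75th percentile. SPINT2, an inhibitor of membrane serine proteases, read 5.40 and 5.29 and its targets ST14 (matriptase) and PRSS8 (prostasin) 2.84 and 2.99, and 3.73 and 3.77. The transcription factors EHF (3.09 and 3.15), KLF5 (1.40 and 1.53), ELF3 (1.03 and 1.13) and GRHL2 (0.14 and 0.20) and the splicing factors ESRP2 (1.11 and 1.13) and ESRP1 (-0.08 and -0.13) belong to this list.

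E-cadherin (CDH1), the adhesion molecule of epithelia, read 3.23 and 3.30, and 15 of 17 genes of adherens junctions and desmosomes were detected. Desmosomal PKP3 (4.31 and 4.24), JUP (3.95 and 3.92) and DSP (3.61 and 3.67) lay well above the 75th percentile. The desmosomal cadherin DSC3 of stratified epithelium was not well above background. Of 22 tight junction genes 16 were detected, with CLDN4 at 5.6 and 5.40, F11R at 4.90 and 4.89 and CLDN7 at 3.57 and 3.44. The stomach and lung claudin CLDN18 and CLDN6, CLDN8 and CLDN10 were not well above background.

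Mesenchymal genes were detected beside this epithelial set. VIM (vimentin) read 4.59 and 4.43 and CDH2 (N-cadherin) 3.46 and 3.43, and these were the 2 of 13 above the 75th percentile. The repressors of E-cadherin SNAI2 (-0.44 and -0.63), ZEB1 (-1.41 and -1.15) and SNAI1 (-3.77 and -3.54) were detected, whereas ZEB2, TWIST2 and FOXC2 were not well above background. In all 8 of 13 were detected, against 69.4% of protein-coding names.

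Mucins and trefoil peptides, the gel and shield of the mucosa, were detected for 11 of 15 genes, 4 of them above the 75th percentile. AGR2, a disulfide isomerase needed for mucin folding, read 2.04 and 2.01. The membrane mucins MUC4 (1.42 and 1.73), MUC16 (CA-125, 0.33 and 0.64), MUC20 (0.04 and 0.10) and MUC1 (-0.17 and -0.04) were the brightest mucins. Secreted gel-forming MUC5AC, MUC6, MUC2 and MUC5B were detected at levels from -5.03 to -1.63. MUC13 and MUC15 were not well above background.

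Antigens followed in pancreatic and biliary tumours gave a mixed picture, with 13 of 18 detected and 2 above the 75th percentile. These were the tetraspanin TSPAN8 (1.26 and 1.35) and the retinoic acid-induced receptor GPRC5A (1.19 and 1.17). Mesothelin (MSLN) read -1.98 and -2.02, PSCA -2.16 and -2.16, and S100P -2.61 and -2.76. CEACAM6 read -1.55 and -1.56, whereas CEACAM5, the classical carcinoembryonic antigen, was not well above background at -7.28 and -7.47. CA9, REG4 and CLDN18 were also not well above background. Members of the CEACAM family are alike in sequence, and cross-reading of their probes was not tested.

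Of 26 transcription factors of endoderm and its organs 16 were detected and 6 lay above the 75th percentile. TEAD1 (2.78 and 2.85) and its coactivator YAP1 (2.00 and 2.04), which act downstream of the Hippo pathway, GATA6 (1.70 and 1.66), FOXA2 (1.51 and 1.49) and SOX4 (1.19 and 1.32) were among these. FOXA1 read -1.20 and -1.07, and the Notch target HES1 -2.69 and -3.00. HNF4A and CEBPA, which drive hepatocyte genes, were not well above background, nor were PROX1, an early liver factor, PDX1 of pancreas and duodenum, NKX2-1 of lung and thyroid, and SOX2. HNF4A read -7.37 and -7.52.

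Secreted proteins formed a large detected group. Over 5 lists of growth factors, cytokines, acute phase proteins, proteases and matrix proteins, 135 of 173 genes (78.0%) were detected and 76 lay above the 75th percentile, beside 69.4% and 33.9% of protein-coding names. The plot of levels by list shows each gene of these groups.

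**Figure D2:**
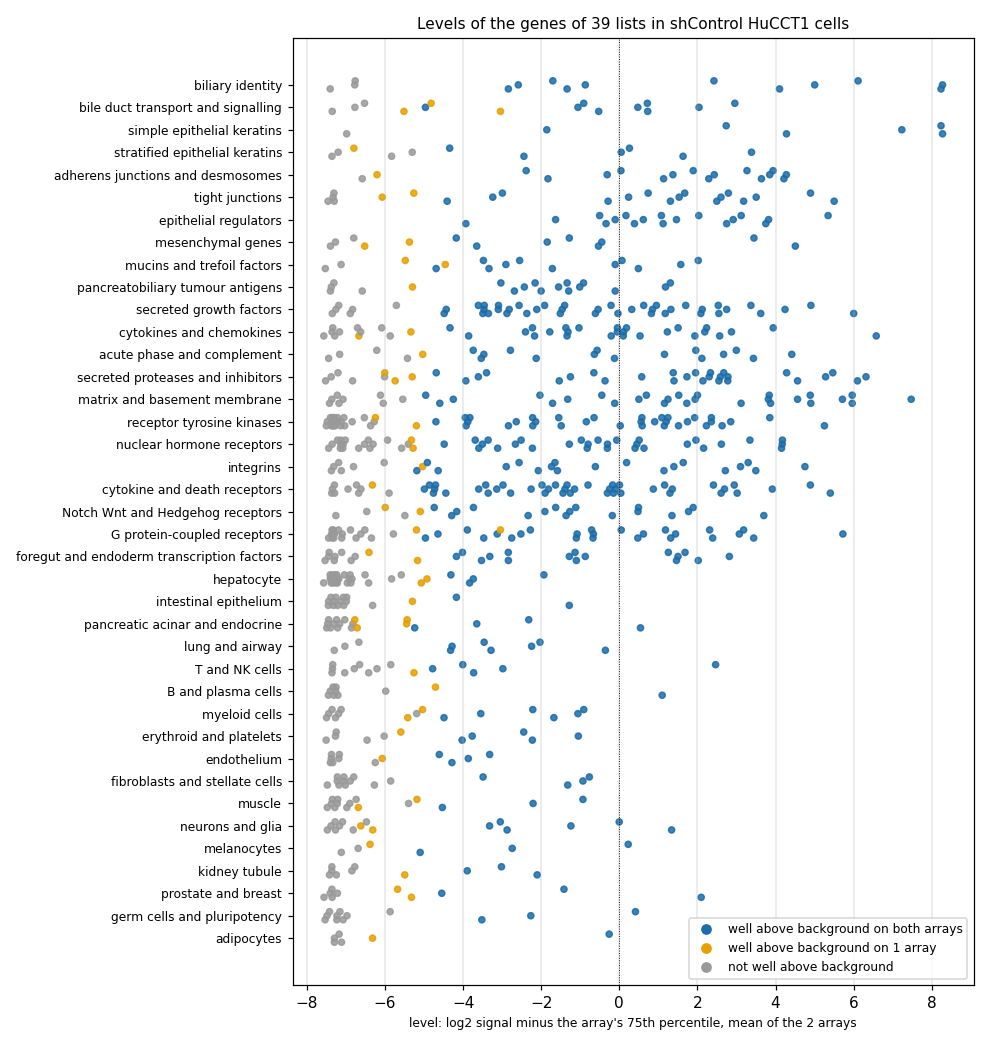
Levels of the genes of 39 lists in shControl cells, 1 point per gene, as log2 signal minus the array's 75th percentile, mean of the 2 arrays on the x axis. Colours give the detection call, and the vertical offset within a list carries no information. The epithelial, secreted and receptor lists spread to both sides of 0, and most genes of the lists of other cell types lie near -7.

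Growth factors were detected for 40 of 46 genes, 18 of them above the 75th percentile. CYR61, a matricellular protein induced by YAP, read 6.02 and 5.98. Ligands of the EGF receptor were represented by AREG (amphiregulin, 4.93 and 4.88), EREG (2.12 and 2.13), HBEGF (0.84 and 0.80), TGFA (-0.02 and -0.05) and BTC (-1.47 and -1.56), while EGF and EPGN were not well above background. INHBA, the subunit of activin A, read 4.20 and 4.28, the Wnt antagonist DKK1 3.69 and 3.55, and the stress-induced GDF15 2.69 and 2.37. The angiogenic factors VEGFB (3.39 and 3.34), VEGFC (2.66 and 2.43) and VEGFA (2.10 and 2.07) were detected together. HGF and IGF1, ligands made largely by stromal and liver cells, were not well above background, with HGF at -7.26 and -7.44.

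Cytokines and chemokines were detected for 26 of 37 genes. MIF, a constitutively stored cytokine, read 6.69 and 6.46. The neutrophil chemokines CXCL5 (3.93 and 3.95), CXCL1 (2.84 and 2.90) and CXCL2 (0.17 and 0.20) were above the 75th percentile, and IL8 read -1.36 and -1.38. LIF, a ligand of the IL6ST receptor, read 1.89 and 1.98, the receptor antagonist IL1RN 2.62 and 2.51, IL18 2.34 and 2.03, IL1B 0.08 and 0.13, and IL6 -0.12 and 0.02. The interferon-induced chemokines CXCL9 and CXCL11 were not well above background, and CXCL10 was so on array 2 alone. IL10, IL33, TSLP and CCL5 were not well above background.

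Acute phase and complement genes, which liver makes in bulk, were detected for 15 of 20 genes on the array. Complement C3 read 4.34 and 4.49, lipocalin LCN2 3.46 and 3.40, and SERPINA1 (alpha-1 antitrypsin) 3.04 and 2.95. The serum amyloids SAA1 (2.84 and 2.50) and SAA2 (2.06 and 1.85) have near-identical sequences, and their readings may share RNA. CRP, LBP and CFI were not well above background.

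Proteases and their inhibitors were detected for 27 of 35 genes, 19 of them above the 75th percentile. Urokinase (PLAU), which activates plasminogen, read 6.31 and 6.32, and matrilysin (MMP7), an epithelial metalloprotease, 6.07 and 6.12. Among inhibitors, CST6 (5.51 and 5.42), which acts on cysteine proteases, and TIMP2 (5.29 and 5.28), which acts on metalloproteases, were also bright. Trypsinogens PRSS2 (4.33 and 4.24), PRSS1 (2.23 and 2.05) and PRSS3 (1.86 and 1.60) were detected, and these 3 paralogs cannot be separated with certainty by their probes. MMP3, MMP13 and TIMP3 were not well above background, and MMP2 was so on array 2 alone.

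Matrix genes were detected for 27 of 35 names, 19 of them above the 75th percentile. TGFBI, a matrix adaptor protein, read 7.45 and 7.50. LAMB3 (5.95 and 5.97) and LAMA3 (3.88 and 3.86) encode chains of laminin-332, the anchoring laminin of epithelia, and COL17A1, the collagen of hemidesmosomes, read 1.51 and 1.53. COL18A1 (4.82 and 4.99) and AGRN (3.74 and 3.93), proteoglycans of the basement membrane, were detected. HSPG2 (perlecan) read 4.79 and 4.98 by its brightest probe, and its other probes had mean levels between -4.69 and -2.63. Collagens of interstitial matrix were detected in part, with COL6A1 at 3.73 and 3.90, COL12A1 at 1.16 and 1.33, COL6A2 at 0.69 and 0.70 and COL1A1 at -1.44 and -1.21. COL1A2, COL3A1, COL6A3 and the matrix proteins FBN1 and SPARC were not well above background.

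Receptor tyrosine kinases, through which most of these growth factors act, were detected for 33 of 58 genes, 19 above the 75th percentile. MET, the receptor of HGF, read 5.22 and 5.29. AXL, the receptor of GAS6, read 3.89 and 3.82, and GAS6 itself was detected at 1.23 and 1.41. The ERBB family was represented by EGFR (2.34 and 2.37), ERBB2 (2.31 and 2.40) and ERBB3 (0.56 and 0.60), with ERBB4 not well above background at -7.13 and -6.93. MST1R (RON), a relative of MET, read 1.71 and 1.77, the collagen receptor DDR1 1.84 and 2.01, and IGF1R 1.42 and 1.61. The insulin receptor INSR read -4.02 and -3.83.

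The FGF receptors, targets of drugs in cholangiocarcinoma, were all below the 75th percentile by these probes. FGFR1 read -0.66 and -0.64, FGFR2 -0.93 and -0.76, and FGFR4 -3.74 and -4.15, while FGFR3 was not well above background at -6.45 and -6.10. Ephrin receptors split, with EPHB6, EPHB2, EPHA4, EPHA2 and EPHB4 above 0 on both arrays and EPHA3, EPHA5, EPHA6, EPHA7, EPHA8 and EPHB1 not well above background. The vascular and stromal receptors KDR, FLT1, FLT4, TEK, TIE1, PDGFRA and PDGFRB, the hematopoietic receptors KIT and FLT3, and ALK and ROS1 were not well above background on either array. RET read -4.80 and -4.59 and was detected, while its other probe, with a mean of -7.48, was not well above background.

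**Figure D3:**
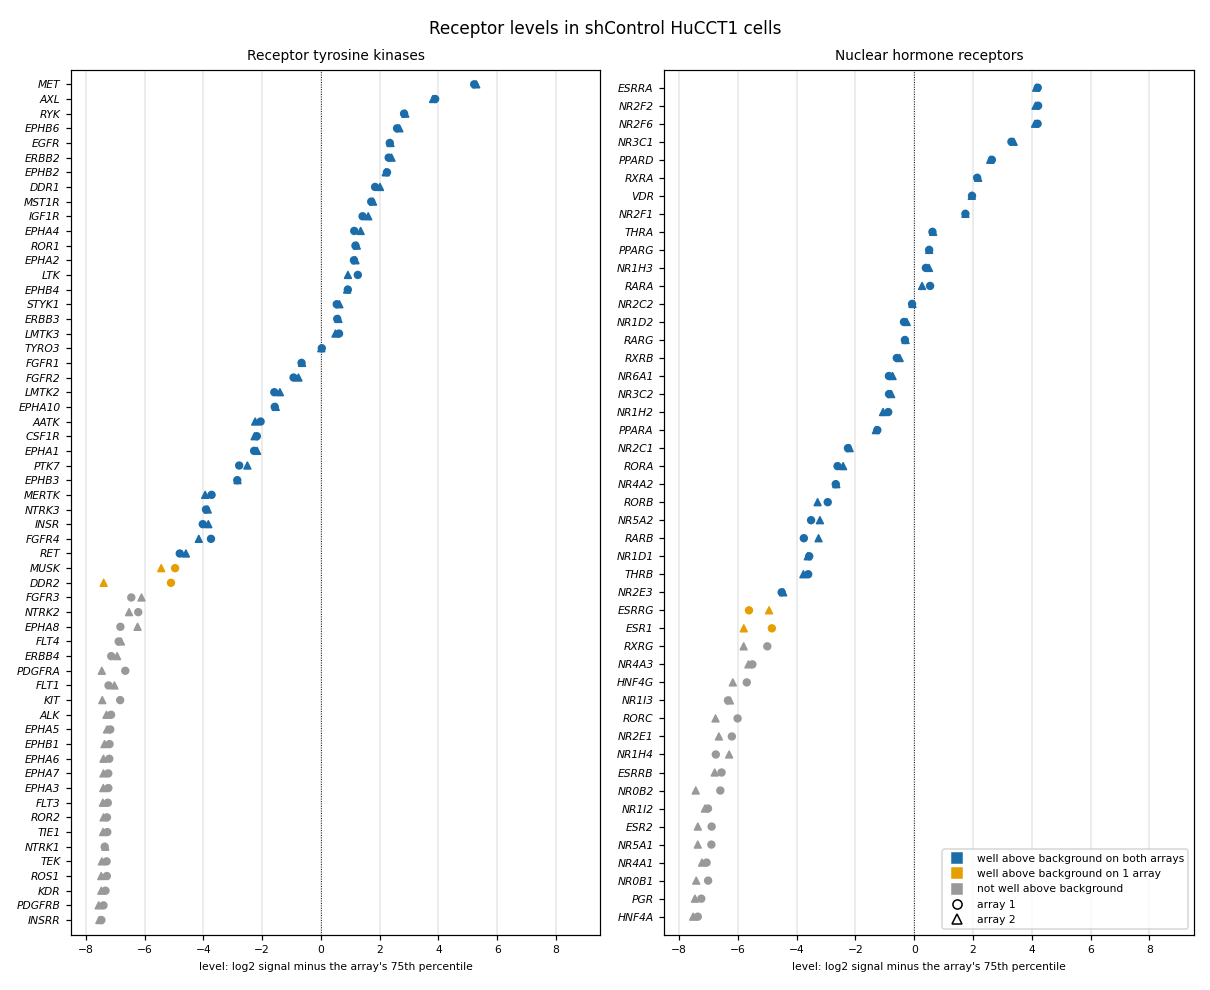
Levels of receptor tyrosine kinases (left) and nuclear hormone receptors (right) on the 2 shControl arrays, as log2 signal minus the array's 75th percentile. Circles are array 1, triangles array 2, and colour gives the detection call. MET reads 5.22 and 5.29, and 23 receptor tyrosine kinases were not well above background on either array.

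Nuclear hormone receptors were detected for 29 of 48 genes, 12 above the 75th percentile. The orphan receptors ESRRA (4.20 and 4.15), NR2F2 (4.21 and 4.13) and NR2F6 (4.20 and 4.11) and the glucocorticoid receptor NR3C1 (3.30 and 3.38) were among the 12, as were PPARD (2.64 and 2.58), RXRA (2.14 and 2.17) and the vitamin D receptor VDR (1.96 and 1.96). The sex steroid receptors PGR and ESR2 were not well above background, and 2 ESR1 probes were so on 1 array each. The receptors that set bile acid and drug metabolism in hepatocytes, NR1H4, NR1I2, NR1I3 and NR0B2, were not well above background.

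Receptors of cytokines and death ligands were detected for 42 of 52 genes. TNFRSF21 (death receptor 6) read 5.39 and 5.41, and TNFRSF12A, the receptor of TWEAK, 4.98 and 4.80. TGFBR2 (3.88 and 3.96) was above the 75th percentile and its partner TGFBR1 (-2.34 and -2.18) below it. TNFRSF10B, a receptor of the ligand TRAIL, read 3.02 and 3.01, and FAS -1.88 and -1.75. IL6ST, the shared signal chain of IL6 and LIF, read 2.90 and 2.98, whereas IL6R was well above background on array 1 alone. IL7R, IL2RA, CD40 and the hormone receptors GHR and PRLR were not well above background.

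Of 22 receptors of the Notch, Wnt and Hedgehog pathways 17 were detected. NOTCH2, the Notch receptor required in bile duct development, read 3.65 and 3.75, NOTCH1 -1.54 and -1.72, and NOTCH3 -4.93 and -4.56. The Wnt receptors FZD2 (1.90 and 1.88) and FZD7 (1.32 and 1.38) and the coreceptors LRP6 (1.70 and 1.84) and LRP5 (0.47 and 0.51) lay above 0. LGR5, a stem cell receptor of the gut, and SMO, the signal transducer of Hedgehog, were not well above background.

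Integrins were detected for 19 of 26 genes, led in brightness by ITGB4 (4.71 and 4.79), which binds laminin-332 with ITGA6 (1.60 and 1.67). ITGAV (3.38 and 3.60), ITGA3 (3.31 and 3.28), ITGB5 (3.07 and 3.14) and ITGB1 (2.70 and 2.73) were above the 75th percentile. The leukocyte chains ITGAL, ITGAX and ITGAD were not well above background, whereas ITGB2, with which they pair, read 1.45 and 1.34. ITGA4 was also not well above background.

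G protein-coupled receptors were detected for 25 of 44 genes. F2RL1 (PAR2), which trypsins activate, read 5.77 and 5.68, and F2R (PAR1) 1.30 and 1.33. The adenosine receptor ADORA2B (2.36 and 2.26) and the chemokine receptor CXCR4 (2.34 and 2.44) lay above the 75th percentile. CXCL12, the ligand of CXCR4, was detected at -4.13 and -4.54, while other probes of it with means of -7.34 and -6.55 were not well above background. Their detected share of 56.8% lay beside 56.9% of receptor tyrosine kinases and 69.4% of protein-coding names. Over the 6 lists 165 of 250 receptors (66.0%) were detected.

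Genes of other lineages were mostly not well above background. Over 17 lists of other cell types, 63 of 226 genes (27.9%) were detected, 22 were seen on 1 array and 141 on neither, and 7 lay above the 75th percentile. With the less strict mark of a positive and significant signal 120 of the 226 were detected. Of 30 hepatocyte genes, 24 were not well above background, and 4 were detected, or 14 with the less strict mark. The undetected ones include genes of secreted liver proteins, with AFP at intensities of 4.83 and 4.99 and ALB at 4.52 and 6.41. The 4 detected were the uptake carrier SLCO1B1 (-2.0 and -1.87), the urea cycle enzyme CPS1 (-3.71 and -3.77), the asialoglycoprotein receptor ASGR1 (-3.76 and -3.91) and CYP2E1 (-4.49 and -4.13). APOA1 (-4.76 and -5.09) and TAT (-4.84 and -5.30) were called on array 1 alone.

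Other epithelia were detected in part. Of 16 intestinal genes the 2 detected were the homeobox factors CDX1 (-1.30 and -1.26) and CDX2 (-4.04 and -4.31), whereas VIL1, CDH17, FABP1 and KRT20 were not well above background. The other CDX1 probe had a mean level of -7.30 and was not well above background. Of 19 pancreatic genes 4 were detected, the endocrine factor NEUROG3 (0.63 and 0.45), the lipase CEL (-2.31 and -2.33), IAPP and PPY, and 11 were on neither array. The other CEL probe, with a mean of -6.87, was not well above background. The lung and airway list was an exception, with 7 of 10 genes detected at levels from -4.38 to -0.34, among them the secretoglobin SCGB3A2 (-0.34 and -0.38) and the surfactant protein SFTPC (-3.42 and -3.15). SFTPA1, SFTPB and NKX2-1 were not well above background. Kidney tubule genes were detected for 3 of 10, and genes of prostate and breast for 3 of 10, with STEAP2, a metalloreductase, at 2.06 and 2.13.

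Blood and stromal lists held some detected genes beside defining markers that were at background. CD3E, CD3G, CD2, MS4A1, PAX5, PECAM1, TEK, COL3A1, DCN, CD163 and GATA1 were not well above background on either array. T and NK cell genes were detected for 5 of 15 (11 with the less strict mark), with CD4 at 2.57 and 2.35 by its single probe and LCK at -3.02 and -2.94. B and plasma cell genes were detected for 1 of 10, CD79A, at 1.24 and 0.96. Myeloid genes were detected for 6 of 15, FCER1G (-0.87 and -0.96), CD68, CD14, CSF1R, TYROBP and SPI1 (-4.34 and -4.64). Erythroid and platelet genes were detected for 5 of 11, endothelial genes for 4 of 12 with VWF at -3.44 and -3.20, and fibroblast and stellate cell genes for 4 of 15 (10 with the less strict mark), LUM (-0.76 and -0.77), DES, COL1A1 and ACTA2.

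The lists of muscle, neurons, melanocytes, germ cells and adipocytes held few detected genes. Muscle genes were detected for 3 of 15 (10 with the less strict mark) and neural genes for 6 of 16. MBP, the basic protein of myelin, read 1.35 and 1.33 by 1 probe while its other probes had means of -7.36 and -5.70 and were not well above background. Melanocyte genes were detected for 3 of 6, MITF (0.19 and 0.27), PMEL and DCT, with SOX10 and MLANA at background. Of 12 germ cell and pluripotency genes, POU5F1 (0.24 and 0.58), ZP3 and NANOG were detected, and POU5F1 and NANOG have expressed pseudogenes that a probe may read. Of 6 adipocyte genes CIDEC was detected, at -0.27 and -0.25.

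Readings present on 1 array alone were left out of these counts, and many lay close together on the slide. On each shControl array 151 probes were at least 4 log2 units brighter than on the other and well above background there alone. Of their 157 spots on array 1, 125 (79.6%) had another such spot within 2 rows and 2 columns, as had 118 of 153 (77.1%) on array 2. SSTR2, the somatostatin receptor of cholangiocytes, was one of them, at -6.43 and 0.34, with its other probe at background. MUC17 (-1.63 and -7.28), TWIST1 (-3.28 and -7.47) and CR2 (-1.98 and -7.44) were read likewise. TFF3 (-7.39 and -3.58) and SLC9A3 (-7.26 and -3.77) were also called on 1 array, with gaps under 4. The brightest probe of PTPRC (CD45), the common leukocyte antigen, read -7.31 and -0.15, and the gene counts as detected through other probes with means of -4.92 and -4.32. The largest gaps over all names were of 8.22 to 7.46 log2 units, and these names, LOC400965, SCRT1 and MOBP among them, were detected on 1 array alone.

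**Figure D4:**
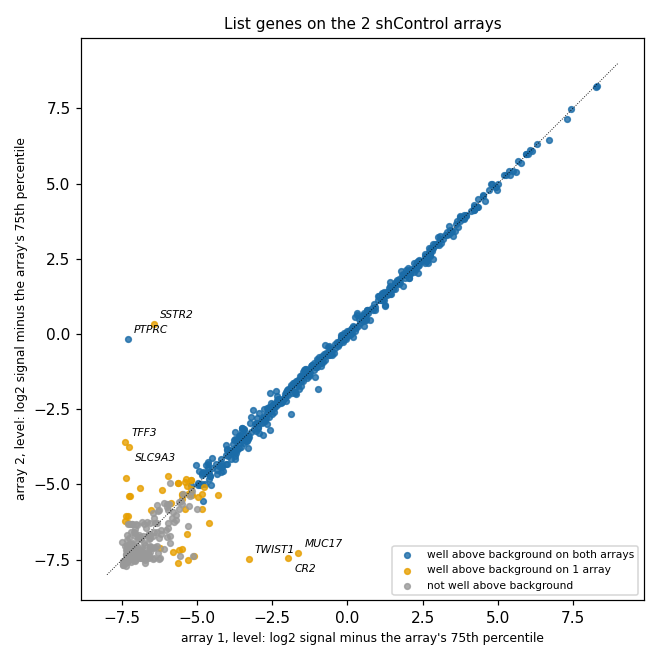
Levels of the genes of the 39 lists on shControl array 1 (x axis) and array 2 (y axis), both as log2 signal minus the array's 75th percentile. Colours give the detection call and the dotted line is equality. SSTR2 and PTPRC stand off the line on array 2 and MUC17, CR2 and TWIST1 on array 1.

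Whether these levels are those of the other cells of the series was asked with limma, over 20450 genes and in 1 model with a mean for each vector. BEX2, the gene targeted in the sublines, was low in shControl cells, at -3.36 and -3.91, and read -2.70 and -3.77 in shNontarget cells. It read -5.21 and -5.54 in shBEX2-1 cells and -4.92 and -4.60 in shBEX2-2 cells, below every control array, and was well above background on 2 of these 4 subline arrays. The difference is thus taken partly against background readings. The shControl level was higher than the mean of the sublines by 1.43 ± 0.37 (SE) on the log2 scale, with an adjusted p of 0.0657 by limma, which missed the threshold of 0.05. With all arrays the 4 biliary markers did not pass this threshold either, with limma adjusted p values of 0.785 for KRT7, 0.934 for KRT19, 0.288 for SOX9 and 0.830 for EPCAM. SOX9 read -1.22 to -1.01 in the sublines, below both shControl values. BEX2 and SOX9 passed without shNontarget replicate 1 or 2. Far more genes passed there than with all arrays, so that this does not single out either gene. Without either shControl array no gene passed.

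Against the other control vector, shNontarget, limma called 0 of 20450 genes (0.00%), with 1567 at an unadjusted p under 0.05. Of 500 list genes tested 0 were called, and 235 had groups that did not overlap, beside 26.5% of all genes. The count rests on the spread between the shNontarget arrays: without shNontarget replicate 1 limma called 9235 genes and without replicate 2 it called 9459. A lone array is then assumed to vary like the other vectors. KRT7 read 8.53 and 8.14 in shNontarget cells, KRT19 8.23 and 7.67, SOX9 -0.64 and -0.57, and EPCAM 5.05 and 4.21. KRT7, KRT19 and EPCAM overlapped the shControl values, whereas both SOX9 readings lay above the shControl pair, with a limma adjusted p of 0.777. The difference of EPCAM was 0.37, and 0.80 without shNontarget replicate 1, where its limma adjusted p was 0.000559. BEX2 passed without shNontarget replicate 2, lower in shControl cells by -0.94 with a limma adjusted p of 0.0450.

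Against the mean of the BEX2 sublines, limma called 1861 of 20450 genes (9.10%), 935 (4.57%) higher and 926 (4.53%) lower in shControl cells. With normexp background correction 2134 were called, 809 higher and 1325 lower, a higher share of 37.9% in place of 50.2%. Of 500 list genes 109 (21.8%) were called, 76 higher and 33 lower in shControl, and 302 had groups that did not overlap, beside 54.9% of all genes. The lists were written with results of the whole series known. These counts, and those of single lists below, are thus no evidence that list genes differ more often than others. The median difference was 0.07 for the list genes and -0.02 for all. These counts depend on single arrays: 0 genes were called without either shControl array, between 360 and 663 without an array of a subline (473 and 663 for shBEX2-1 replicates 1 and 2, 360 and 418 for shBEX2-2), and 9793 or 9813 without shNontarget replicate 1 or 2. Row of the slide runs with this contrast as well, and its part in the result was not tested. In RNA of whole cultures, fewer cells that express a gene and less RNA per cell cannot be told apart.

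**Figure D5:**
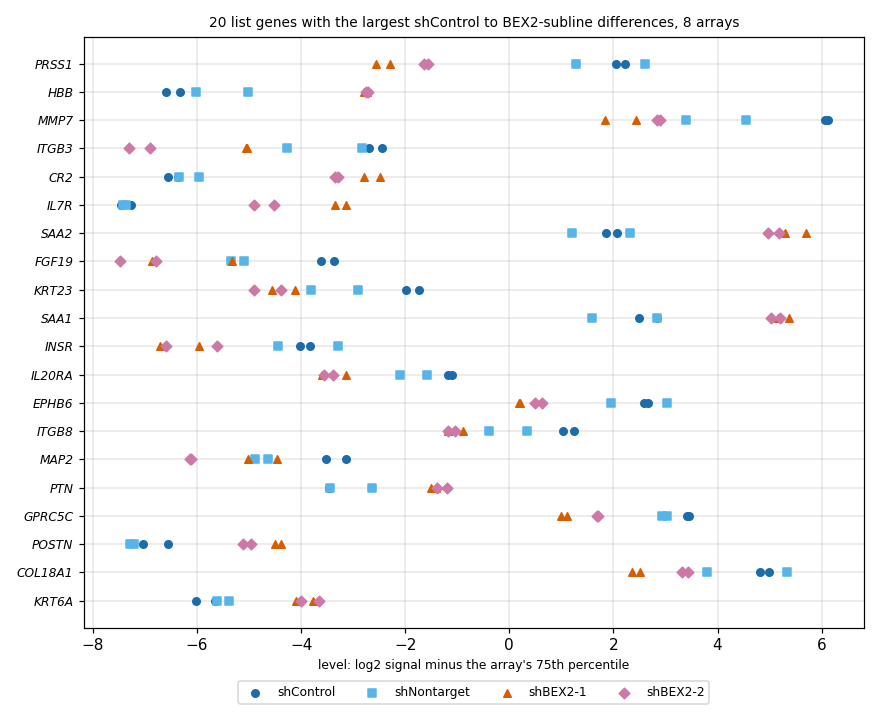
Levels of the 20 list genes with the largest called difference between shControl and the BEX2 sublines, on all 8 arrays, as log2 signal minus the array's 75th percentile. Each point is 1 array and colours and shapes give the vector. MMP7 reads 6.07 and 6.12 in shControl cells and 1.84 to 2.89 in the sublines, with the shNontarget arrays between them.

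Secreted proteins held several of the largest differences from the sublines. MMP7 read 6.07 and 6.12 in shControl, 4.55 and 3.39 in shNontarget, 1.84 and 2.43 in shBEX2-1 and 2.89 and 2.83 in shBEX2-2 cells. Its level was 12.1-fold higher in shControl cells than in the sublines, with a log2 difference of 3.60 ± 0.34 (SE) and a limma adjusted p of 0.00374. PRSS1 read 2.23 and 2.05 in shControl cells, 2.60 and 1.28 in shNontarget cells and -2.56 to -1.56 in the sublines, a log2 difference of 4.15 ± 0.35 (SE; limma adjusted p = 0.00314). Of 28 proteases and inhibitors tested, 6 were higher and 2 lower in shControl, 28.6% called beside 9.10% of all genes. The lower ones were MMP1 and the plasminogen activator PLAT. MMP1 read 2.04 and 1.86 in shControl, 3.71 and 2.66 in shNontarget and 2.96 to 4.30 in the sublines, so that shNontarget overlapped the sublines. PLAT read 2.02 and 2.03 in shNontarget cells, below its 2.74 and 2.81 in shControl.

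The serum amyloids moved the other way. SAA2 read 2.06 and 1.85 in shControl, 2.31 and 1.20 in shNontarget and 4.98 to 5.69 in the sublines, a log2 difference of -3.33 ± 0.32 (SE; limma adjusted p = 0.00389), and SAA1 differed by -2.52 with an adjusted p of 0.0099. Both control vectors lay below every subline array for both genes. Cytokines divided, with 3 of 27 tested higher and 6 lower in shControl, 33.3% called beside 9.10% of all genes. The lower ones included IL1B (0.08 and 0.13 against 1.64 to 1.86), IL1A and CXCL5, and the higher ones CCL2 (1.21 and 1.25 against -1.30 to -0.08), a monocyte chemokine. CCL2 read -1.03 and -1.83 in shNontarget cells, which is on the side of the sublines.

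Duct genes called in this comparison were higher in shControl cells. Of 9 duct transport genes tested 3 (33.3%) were called, beside 9.10% of all genes. These were ANO1 (0.65 and 0.79 against -1.43 to -0.40, adjusted p = 0.00294 by limma), ABCC3 and CFTR. CFTR read 0.66 and 0.80 in shControl, -1.39 and -1.22 in shNontarget, 0.41 and 0.57 in shBEX2-1 and -1.07 and -1.02 in shBEX2-2 cells. The shControl value was thus above both shNontarget arrays and above those of either subline, and the other control vector was the lowest. Of 11 identity genes tested PROM1 alone (9.09%) was called, higher by 1.04 ± 0.16 (SE; limma adjusted p = 0.0161). PROM1 read -2.33 and -1.98 in shNontarget cells, within the range of -2.83 to -1.86 of the sublines. Of 6 simple keratins tested KRT23 alone (16.7%) was called, at -1.73 and -1.99 against -4.90 to -4.12. KRT23 read -2.91 and -3.80 in shNontarget cells, between the shControl and subline values.

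Receptors were called in both directions. Of 34 receptor tyrosine kinases tested 5 were higher and 2 lower in shControl, 20.6% called beside 9.10% of all genes. EPHB6 read 2.59 and 2.67 against 0.19 to 0.62 (limma adjusted p = 0.00807). FGFR2 read -0.93 and -0.76 against -2.24 to -1.90 (limma adjusted p = 0.00649). INSR was well above background on both shControl arrays and on 0 of 4 subline arrays. It was at least 4.37-fold higher in shControl cells. INSR, 1 of the 5 higher kinases, could thus enter the test only through the control vectors, where it is high. Its call adds no support to this reading. Of 31 nuclear receptors tested 6 (19.4%) were called and 6 were higher, among them NR2F1 at 1.74 and 1.74 against -0.15 to 0.07. Integrin ITGB3 read -2.69 and -2.45 in shControl cells, -5.04 and -5.07 in shBEX2-1 cells and -6.90 and -7.31 in shBEX2-2 cells, where it was not well above background. GPRC5C read 3.42 and 3.46 against 0.99 to 1.70.

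Some list genes not well above background in shControl cells were so in the sublines. HBB (beta globin) was well above background on 4 of 4 subline arrays, where it was at least 12.1-fold higher, and read -2.79 to -2.71 there. IL7R, the interleukin 7 receptor, was at least 5.15-fold higher in the sublines, and CR2, by a probe at background on both shControl arrays, at least 10.3-fold. Another CR2 probe was well above background on shControl array 1 alone. POSTN, a matrix protein of fibroblasts, and KRT6A, a stress keratin, were at least 3.04-fold and 3.86-fold higher in the sublines. By the probes tested, HBB, IL7R, CR2, POSTN and KRT6A were well above background on 0 shControl arrays and on 4 subline arrays. They could thus enter the test through the sublines, where they are high, and their calls add no support to these readings. Of 15 fibroblast and stellate cell genes 5 were tested, POSTN in this way, and POSTN alone was called. Of 18 epithelial regulators tested 1 (5.56%) was called, SPINT1, higher in shControl cells by 0.83. Of 16 endoderm factors tested 2 (12.5%) were called, SOX4 and HES1, both higher. HES1 read -1.84 and -1.06 in shNontarget cells, above its -2.69 and -3.00 in shControl cells.

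The largest called differences over all genes included 4 that are in none of these lists and have a gene or transcript name. WNT11, a Wnt ligand, read -3.58 and -3.16 in shControl cells and was not well above background on the subline arrays, at least 7.36-fold lower there. LEMD1, a testis antigen, was at least 6.02-fold lower in the sublines. A transcript named ENST00000398819 was higher in shControl by 4.10 ± 0.65 (SE), a difference taken mostly against background readings since 1 of 4 subline arrays was above background, and a lincRNA probe by at least 14.5-fold. WNT11, LEMD1 and the lincRNA probe were well above background on 0 of 4 subline arrays. They could thus enter the test only through the control vectors, where they are high, and their calls add no support to these readings. OLR1, a scavenger receptor for oxidised lipoprotein, was lower in shControl, at -4.76 and -4.89 against -2.46 to -0.10.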

How the data were processed

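Gene expression of HuCCT1 cells was measured on 8 single-colour arrays, 2 for each of 4 vectors. The authors deposited 1 scanner file per array. Its processed intensity had background and spatial trend removed on that array, with low signals replaced by surrogates (22.2% and 22.5% of spots on the shControl arrays), and no scaling between arrays. The submitters' processing notes name Agilent Feature Extraction 10.7.3.1. The deposited series table held these intensity values to within 0.497% and served as an alternative.

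Control spots and non-uniform spots were left out. Log2 intensities had the array's 75th percentile subtracted, spots of a probe were averaged, and each gene name took its brightest probe. Detection used the scanner's well-above-background mark. The number of arrays limits the precision.

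The contrasts kept probes that 4 or more of 8 arrays marked well above background and used limma 3.58.1 (lmFit and eBayes with trend, R 4.3.3), called at a Benjamini-Hochberg adjusted p under 0.05. A gene at background in shControl or in the sublines could pass this filter through the other arrays, which largely fixed its direction. The study's rank product has no model for 4 vectors. Where no array of a group was above background, the fold is a bound: the brighter group's mean was set against the dim probe, raised on each array to the lowest reading above background wherever it fell short of that. The limma script was tested on simulated data. The rest ran in Python 3.11.15 with pandas 2.3.3, numpy 2.4.6 and, for plots, matplotlib 3.10.9.

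The 39 lists hold 791 genes, 787 of them on the array, 6 under an older name. For 771 the probe's accession is a RefSeq transcript of the symbol. The condition and the lists were chosen with earlier results of these data known. Some list genes are counted but not reported by name here or drawn in the plots that name genes. Named are the 40 brightest names, list members, BEX2, and the largest differences. Alternatives covered background correction, quantile normalization, the filter, the table, other detection calls, the replicate block and leaving out each array. Leaving out both shNontarget arrays was added after seeing the data.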

Additional observations from a re-analysis of the deposited data

How the results depend on the processing

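Counts of genes kept their size better than single levels did: 7463 gene names lay above the 75th percentile on both arrays, and each alternative stayed within 1.5 times that, as did the 477 list genes detected. The exception was the lists of other cell types, where 63 genes were detected and 120 with the less strict mark of a positive and significant signal. Of 477 list genes, 57 moved by over 1 log2 unit with normexp and 88 with the median of a gene's probes, which kept 27 of the 40 brightest names and took NAT11 to 3.59 and GPR155 to -3.82. Leaving out 1 array in turn gave between 0 and 9459 calls against shNontarget and between 0 and 253 of its list members, and against the BEX2 sublines between 0 and 9813 calls and between 0 and 293 list members. Without both shNontarget arrays 9793 genes and 291 list members were called against the sublines, and the 109 list members called first were among them. The cause was not tested beyond the spread between the shNontarget arrays given in the report. Directions changed for markers not called: against shNontarget, KRT7 was 0.13 with quantile normalization and ranged from -0.25 to 0.13 with 1 array left out, EPCAM from -0.051 to 0.80 and BEX2 from -0.94 to 0.14, and against the sublines KRT7 was 0.13 and KRT19 0.10 with quantile normalization. Normexp shifted the median difference of all genes against the sublines to -0.11. The replicate numbers were not taken to pair the arrays: across genes, replicate differences of the vectors correlated with r from -0.06 to 0.26, above 0.1 for 5 of 6 pairs of vectors, and the labels name no shared batch, although names of the deposited arrays set the numbers apart by day. With the replicate block 1422 genes were called against the sublines, 90 of the 109 list members among them, and 0 against shNontarget. INSR, ABCC3 and HES1 are among the 19 that did not pass with it.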
